A study of Rattus norvegicus with 12 samples.

Results

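Genes of RNA splicing factors and RNA helicases were followed in rat ventral midbrain cultures after depolarization. Members were chosen by name: every gene with a symbol starting with Hnrnp, Srsf, Sf3, Snrp, Prpf or Rbm, or with Ddx or Dhx and a digit, and the kinases Clk1, Clk2, Clk3 and Clk4. The rule found 112 genes, measured by 147 probe sets, among 10411 genes with 1 symbol on the array. Where a gene had several probe sets, the brightest one on average over the 12 arrays stands for it.

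Cells of ventral midbrain from E12 embryos (labelled CD1 rat) were expanded over 6 days in 20 ng/ml bFGF (basic fibroblast growth factor) plus 50 ng/ml SHH (Sonic hedgehog), and kept 3 more days after both were withdrawn. On day 9 in vitro, cultures were depolarized with 56 mM KCl for 2 h and harvested either 30 min or 2 h later, or were kept in control medium for the same time. The title describes them as rich in dopaminergic neurons. This gave 4 groups of 3 arrays: depolarized and control at 30 min, and depolarized and control at 2 h. The tissue came from mixed embryos of 4 dams divided over 3 pools, and duplicate cultures were combined as RNA, so the spread given here is between pooled cultures and not between animals. Whether the 30 min and 2 h cultures shared a preparation is not given in the labels. The design asks which transcripts differed between depolarized and control cultures at each collection time.

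Pre-mRNA splicing removes introns in the spliceosome, which is built from small nuclear ribonucleoproteins (U1, U2, U4, U5 and U6) and many further proteins. SR proteins (Srsf) and heterogeneous nuclear ribonucleoproteins (Hnrnp) bind pre-mRNA and change which splice sites are used, and the Clk kinases phosphorylate SR proteins. DEAD-box (Ddx) and DEAH-box (Dhx) proteins use ATP to remodel RNA in splicing, ribosome assembly, export, translation and decay. In neurons, depolarization is known to change alternative splicing of many transcripts.

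Values are log2 expression per probe set, so a difference of 1 is a 2-fold difference in signal, and group levels are means ± SD of 3 arrays. Differences are depolarized minus control with the standard error (SE) of a limma fit over all arrays, and a gene is said to have risen or fallen when its Benjamini-Hochberg adjusted p over all 15866 probe sets was under 0.05. Beside a count of 0 by that limma test, the count at an unadjusted p under 0.05 is given. The chosen probe sets had mean levels of 5.98 to 12.79 with a median of 10.2, against a median of 8.39 over all probe sets. The number of arrays limits the precision. Across probe sets, replicate arrays correlated at 0.9957 to 0.9979. The list of neuronal markers averaged 10.04 to 11.18 over the arrays, above the array's median. Rbfox3, Nefl and Nefm within it were closer to that median in 30 min controls (8.66, 8.61 and 8.66). The dopaminergic list averaged 7.51 to 8.46. Within it Foxa2 averaged 9.06 to 10.12 by group, Ddc 8.56 to 10.04 and Th 7.53 to 7.96, and Pitx3 was the dimmest at 6.39 to 6.50. Microglial markers averaged 7.05 to 7.38 and those of the oligodendrocyte lineage 7.76 to 8.53. Progenitor markers averaged 10.81 to 11.20, astrocyte markers 9.76 to 9.95, and vascular and fibroblast markers 9.16 to 9.44. The cultures were thus mixed, and these levels do not give the share of any cell type.

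At 30 min, 23 of the 112 genes (20.5%) rose and 20 (17.9%) fell, against 10.8% risen and 13.1% fallen over all probe sets tested. Over all 10411 genes, each at its brightest probe set as for the members, 10.9% rose and 15.4% fell, so the share of fallen members was near that background. The largest rises were those of Rbm15, Prpf4b, Rbm33, Rbm38, Prpf38b and Dhx15, and the largest falls those of Clk2, Rbm14, Ddx24 and Ddx42. The median difference of the 112 genes was 0.034, against 0.014 over all probe sets. Centring each array on its median gave 36 risen and 15 fallen members (14.7% and 10.3% of all probe sets). Removing each array's trend on level gave 29 and 19 (11.9% and 12.8% of all probe sets).

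At 2 h, 11 genes (9.82%) rose and 17 (15.2%) fell, against 9.51% risen and 15.7% fallen over all probe sets, and 9.59% and 18.4% over all genes at their brightest probe set. These shares were close to the background, so the counts say nothing about the genes as a group. The median difference was -0.025, against -0.001 over all probe sets. The split depended on scaling, with 14 risen and 9 fallen under median centring and 13 of each after removing the trend on level. It also depended on single arrays: 9 genes fell without control replicate 4 or without control replicate 5, and 11 without depolarized replicate 4, 5 or 6.

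**Figure D1:**
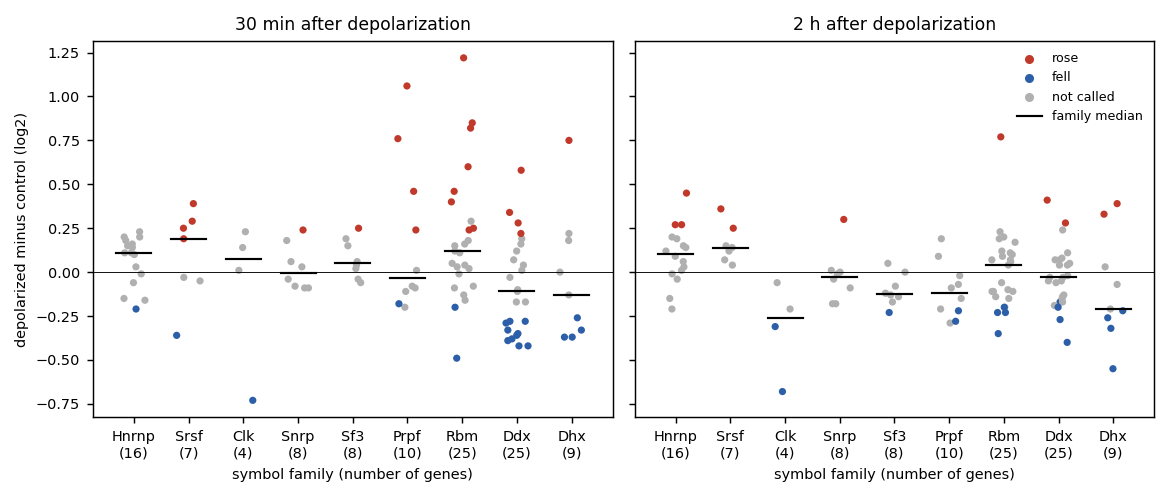
Difference between depolarized and control cultures (log2, vertical axis) for each of the 112 genes, by symbol family, at 30 min (left) and 2 h (right). Points are genes, coloured by whether they rose, fell or were not called, and bars are family medians. At 30 min the Rbm and Prpf families hold the highest points (up to 1.22) and 10 of 25 Ddx genes are marked as fallen.

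The RNA-binding motif (Rbm) proteins gave the largest rises. At 30 min 8 of 25 Rbm genes rose and 2 fell, and at 2 h 1 rose and 4 fell. Rbm15, which guides the N6-adenosine methyltransferase complex to RNA, was at 9.89, 9.95 and 9.94 in depolarized cultures at 30 min, against 8.78, 8.76 and 8.59 in their controls. The groups lay far apart, and the rise was 1.22 ± 0.10 (SE; adjusted p = 1.93e-07), or 2.33-fold. At 2 h its values were 9.17, 8.82 and 8.93 in depolarized cultures, against 8.95, 8.97 and 8.63 in controls. These groups overlapped, with a difference of 0.12 ± 0.10 (adjusted p = 0.414).

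Rbm25, an SR-like regulator of alternative splicing, was the member that rose at 30 min and fell at 2 h. At 30 min it was at 10.58, 10.38 and 10.50 in depolarized cultures, against 9.85, 9.96 and 9.85 in controls. Its 2 h arrays were at 9.78, 9.54 and 9.84 in depolarized cultures, against 10.09, 10.13 and 10.00 in controls. The groups did not overlap at either time, the depolarized arrays being the higher ones at 30 min and the lower ones at 2 h. The rise was 0.60 ± 0.08 (adjusted p = 4.01e-05) and the later difference -0.35 ± 0.08 (adjusted p = 0.00451).

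Rbm33, an RNA-binding protein linked in human cells to removal of N6-methyladenosine, was raised at both times. It was at 10.18, 10.27 and 10.40 in depolarized cultures at 30 min, against 9.56, 9.30 and 9.44 in controls. By 2 h its arrays were at 10.35, 10.01 and 10.10 in depolarized cultures, against 9.42, 9.37 and 9.36 in controls. Every depolarized array was above every control array. The rises were 0.85 ± 0.09 (adjusted p = 3.24e-06) and 0.77 ± 0.09 (adjusted p = 2.09e-05).

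Rbm38, which binds and stabilises mRNAs including that of a cell cycle inhibitor, rose at 30 min by 0.82 ± 0.10 (adjusted p = 1.09e-05). Its arrays were at 9.97, 9.64 and 9.77 in depolarized cultures, against 8.78, 9.01 and 9.12 in controls. At 2 h the difference was 0.20 ± 0.10 (adjusted p = 0.157) with groups that did not overlap. Rbm14, a paraspeckle protein, was the Rbm gene with the largest fall: it was at 8.97, 9.07 and 9.18 in depolarized cultures at 30 min, against 9.60, 9.49 and 9.60 in controls. All 3 depolarized arrays were below the controls and the difference was -0.49 ± 0.08 (adjusted p = 0.000221).

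Of 15 measured Rbm genes listed as splicing regulators or exon junction proteins, 6 (40.0%) rose and 1 (6.67%) fell at 30 min. At 2 h 0 rose and 4 (26.7%) fell (Rbm5, Rbm17, Rbm25 and Rbm42). Besides those above, the risen ones were Rbm39 (0.46), a U2AF-related splicing factor, Rbm8a (0.40), a core protein of the exon junction complex, and Rbm4b (0.25). At an unadjusted p, 0 were higher at 2 h too. Other probe sets of Rbm39 disagreed at 30 min. A dimmer one rose by 0.38 (adjusted p = 0.000469), while those at -0.01 and -0.17 were not called (adjusted p = 0.933 and 0.0865). The list median was 0.15 at 30 min and -0.06 at 2 h, beside 0.014 and -0.001 over all probe sets.

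Among spliceosome proteins, the largest rise was that of Prpf4b, a kinase that phosphorylates proteins of the assembling spliceosome. It was at 10.95, 11.00 and 11.11 in depolarized cultures at 30 min, against 10.01, 9.92 and 9.97 in controls. The groups were apart by far more than their spread, with a rise of 1.06 ± 0.07 (adjusted p = 2.29e-08), or 2.08-fold. Its 2 h values were 10.08, 10.04 and 10.07 in depolarized cultures, against 9.96, 9.74 and 9.93 in controls. All depolarized arrays were still the higher ones, but the difference of 0.19 ± 0.07 did not pass (adjusted p = 0.0598).

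Prpf38b, a relative of the tri-snRNP protein Prpf38a, was at 9.69, 9.70 and 9.80 in depolarized cultures at 30 min, against 9.00, 8.95 and 8.95 in controls. The rise was 0.76 ± 0.07 (adjusted p = 6.02e-07). At 2 h its arrays were at 9.00, 8.92 and 9.16 in depolarized cultures, against 9.15, 9.05 and 9.08 in controls, and the groups overlapped (difference -0.07, adjusted p = 0.539). Prpf38a itself was not called at either time (0.01 and -0.29).

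Prpf3, a protein of the U4/U6 particle, rose at 30 min by 0.46 ± 0.09 (adjusted p = 0.00102). Its arrays were at 10.25, 10.05 and 10.28 in depolarized cultures, against 9.80, 9.62 and 9.77 in controls, without overlap. Of its dimmer probe sets, 1 rose by less (0.20, adjusted p = 0.0266) and the other was not called (0.13, adjusted p = 0.13). Prpf6, which bridges the U5 and U4/U6 particles, fell by 0.18 at 30 min (adjusted p = 0.0478), and its 2 h difference was -0.28 ± 0.06 (adjusted p = 0.00404). Of the 10 Prpf genes 4 (40.0%) rose and 1 (10.0%) fell at 30 min. At 2 h 0 rose, with 1 higher at an unadjusted p, and 2 (20.0%) fell. The background over all genes was 10.9% risen and 15.4% fallen at 30 min, and 9.59% and 18.4% at 2 h.

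The other small nuclear ribonucleoprotein genes had few calls between depolarized and control cultures. Of 8 Snrp genes only Snrpb (12.5%), which encodes the Sm proteins B and B′, rose, and it did so at both times. That share was near the 10.9% (30 min) and 9.59% (2 h) of all genes at their brightest probe set. Between the controls, 4 of the 8 (50.0%: Snrpa, Snrpb, Snrpd2 and Snrpe) were lower at 2 h, against 17.5% of all genes. Snrpb was at 11.90, 11.89 and 11.98 in depolarized cultures at 30 min, against 11.68, 11.73 and 11.64 in controls (0.24 ± 0.06, adjusted p = 0.00901). The 2 h arrays were at 11.63, 11.45 and 11.53 in depolarized cultures, against 11.26, 11.24 and 11.20 in controls (0.30 ± 0.06, adjusted p = 0.00204). The groups were apart at each time, and every 2 h array lay below every 30 min array.

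Of 8 Sf3 genes, whose proteins form part of the U2 particle, Sf3b1 rose at 30 min by 0.25 ± 0.08 (adjusted p = 0.0221), and Sf3a1 fell at 2 h, with a difference of -0.23 ± 0.06 (adjusted p = 0.0134). Both calls were fragile. That of Sf3b1 was lost in 5 alternative settings (adjusted p 0.0501 to 0.112) and that of Sf3a1 in 4 (0.0512 to 0.598). The other Sf3b1 probe set, of similar mean level (11.25 and 11.32), was not called at 30 min (0.19, adjusted p = 0.0616). It rose at 2 h (0.23, adjusted p = 0.0266), where the brightest one did not (0.05, adjusted p = 0.705). The dimmer Sf3a1 probe set was not called at 2 h and had the opposite sign (0.12, adjusted p = 0.414). Over the 25 measured proteins of the U1, U2, U4/U6, U5 and Sm groups, 5 rose and 1 fell at 30 min, and 1 rose and 3 fell at 2 h.

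The 4 Clk kinases, which phosphorylate SR proteins, went different ways. Clk2 was at 8.80, 8.72 and 9.11 in depolarized cultures at 30 min, against 9.71, 9.67 and 9.44 in controls. The depolarized arrays were all lower, with a difference of -0.73 ± 0.10 (adjusted p = 5.93e-05), the largest fall among the 112 genes. At 2 h its arrays were at 9.52, 9.55 and 9.72 in depolarized cultures, against 9.94, 9.80 and 9.68 in controls. These overlapped, and the difference of -0.21 ± 0.10 did not pass (adjusted p = 0.157).

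Clk1 was not called at 30 min and fell at 2 h. At 30 min it was at 10.37, 10.34 and 10.51 in depolarized cultures, against 10.49, 10.32 and 10.40 in controls, with full overlap (0.01 ± 0.07, adjusted p = 0.965). At 2 h it was at 10.30, 10.45 and 10.39 in depolarized cultures, against 10.98, 11.09 and 11.12 in controls. The depolarized arrays at 2 h were all lower than these controls (difference -0.68 ± 0.07, adjusted p = 8.18e-06) and overlapped both 30 min groups. The control level itself differed between times, as given further on.

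Clk3 was at 10.04, 9.69 and 9.87 in depolarized cultures at 30 min, against 9.66, 9.57 and 9.69 in controls, a difference of 0.23 ± 0.08 (adjusted p = 0.0616) that passed in 4 alternative settings (0.012 to 0.0305). At 2 h it fell, with 9.61, 9.50 and 9.62 in depolarized cultures, against 9.88, 10.00 and 9.79 in controls (-0.31 ± 0.08, adjusted p = 0.012). Leaving out control replicate 5 ended that call (adjusted p = 0.067). Clk4 was not called at either time (0.14 ± 0.08, adjusted p = 0.247, and -0.06 ± 0.08, adjusted p = 0.633).

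Of the 7 SR protein genes measured, 4 (57.1%) rose and 1 (14.3%) fell at 30 min. At 2 h 2 (28.6%) rose and 0 fell (0 lower at an unadjusted p as well). Over all genes 10.9% rose and 15.4% fell at 30 min, and 9.59% and 18.4% at 2 h. Srsf11 (0.39), Srsf10 (0.29), Srsf1 (0.25) and Srsf2 (0.19) rose at 30 min. At their other probe sets Srsf1 (-0.06) and Srsf10 (0.19 and 0.09) were not called at that time, while Srsf2 rose (0.37). Srsf5 was at 11.48, 11.65 and 11.70 in depolarized cultures at 30 min, against 12.04, 11.91 and 11.96 in controls. It fell, the depolarized arrays all being lower (-0.36 ± 0.07, adjusted p = 0.000836), and at 2 h its difference was 0.04 ± 0.07 (adjusted p = 0.714).

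Srsf6 was not called at 30 min (-0.05 ± 0.06, adjusted p = 0.646) and rose at 2 h. Its 2 h arrays were at 11.82, 11.76 and 11.68 in depolarized cultures, against 11.42, 11.33 and 11.43 in controls (0.36 ± 0.06, adjusted p = 0.000556). The groups did not overlap, while the 30 min controls, at 11.71, 11.70 and 11.68, lay inside the range of the depolarized arrays at 2 h. The dimmer probe set of Srsf6 (mean level 10.68) differed from this, as it rose at both times (0.28 ± 0.07, adjusted p = 0.00858, and 0.25 ± 0.07, adjusted p = 0.0169).

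The 16 Hnrnp genes had small differences at 30 min, between -0.21 and 0.23. None rose, although 5 were higher at an unadjusted p, and Hnrnpr, which is known to bind mRNA in motor axons of mice, fell by 0.21 (adjusted p = 0.0281), a call lost in 7 alternative settings (0.0574 to 0.145). The count of risen Hnrnp genes at 30 min was 5 under median centring and 4 with the trended prior, and 0 under quantile normalization or with the trend on level removed. At 2 h Hnrnpf, Hnrnpdl and Hnrnpu rose (0.45, 0.27 and 0.27) and 0 fell, with 1 lower at an unadjusted p. Other probe sets of these genes were not called at 2 h: the difference was -0.13 at the dimmer one of Hnrnpdl, and 0.05 and 0.12 at those of Hnrnpu. Hnrnpf, which binds G-rich tracts, was at 11.29, 10.98 and 11.27 in depolarized cultures, against 10.78, 10.77 and 10.63 in controls (0.45 ± 0.08, adjusted p = 0.000881). At 30 min its difference was 0.23 ± 0.08 (adjusted p = 0.0558), with groups apart.

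**Figure D2:**
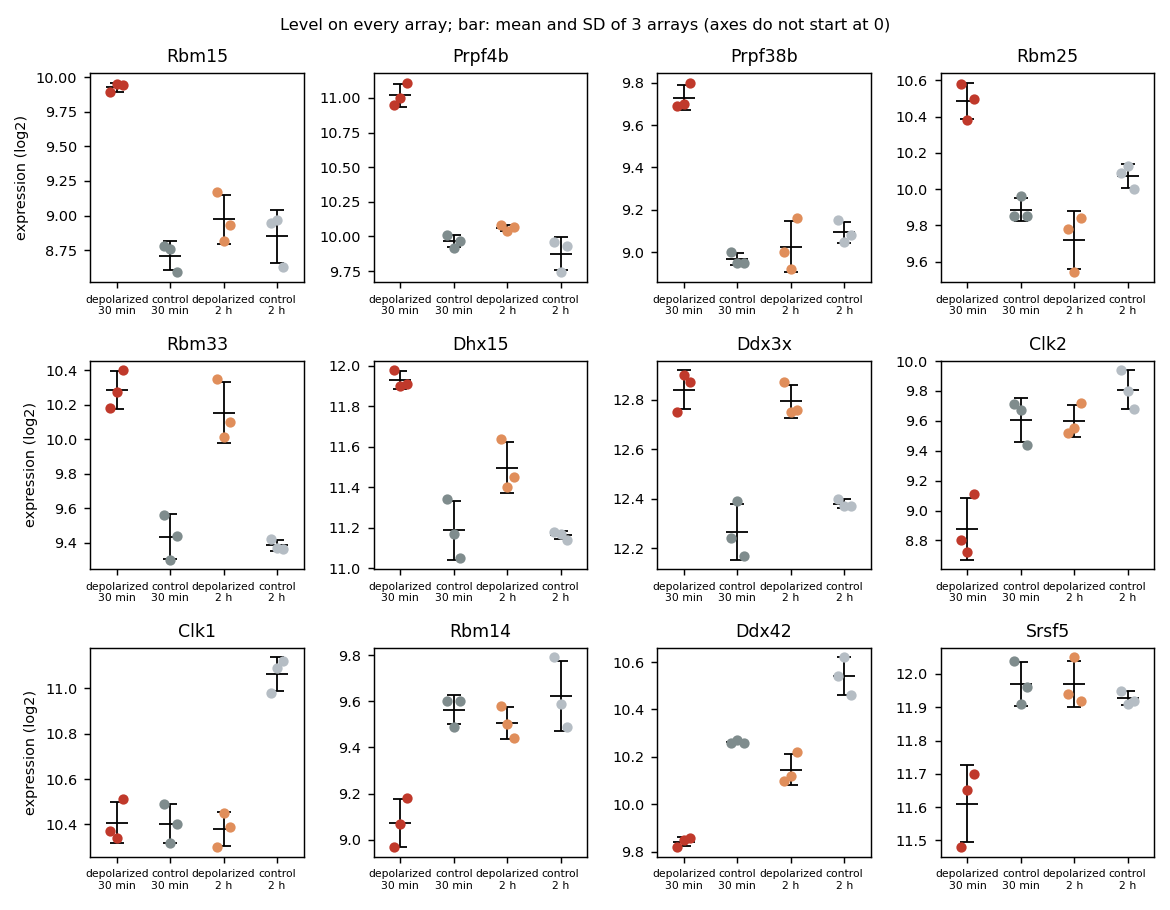
Expression (log2, vertical axes not starting at 0) on every array for 12 genes, in depolarized and control cultures at 30 min and at 2 h. Points are arrays, and bars are the mean and SD of 3 arrays. Rbm15, Prpf4b, Prpf38b and Rbm25 are high in the depolarized arrays at 30 min, Rbm33 and Ddx3x are high in depolarized arrays at both times, and Clk1 stands apart in the 2 h controls.

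Of 25 Ddx genes 4 rose and 10 (40.0%) fell at 30 min, and of 9 Dhx genes 1 rose and 4 (44.4%) fell. Over all genes at their brightest probe set 10.9% rose and 15.4% fell, and the families' difference from that was not tested. Under the alternative scalings and fits, 8 to 10 Ddx genes and 3 to 4 Dhx genes fell. At 2 h 2 Ddx genes rose and 4 fell, and 2 Dhx genes rose and 4 fell.

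Of 8 measured helicases of the spliceosome, 2 rose and 3 fell at 30 min, and 1 rose and 4 fell at 2 h. Dhx15, which takes the spliceosome apart after splicing, was at 11.98, 11.90 and 11.91 in depolarized cultures at 30 min, against 11.34, 11.17 and 11.05 in controls. By 2 h it stood at 11.64, 11.40 and 11.45 in depolarized cultures, against 11.18, 11.17 and 11.14 in controls. The groups were apart at both times, with rises of 0.75 ± 0.08 (adjusted p = 2.92e-06) and 0.33 ± 0.08 (adjusted p = 0.00536). Ddx46, which acts at the branch site, rose by 0.22 at 30 min (adjusted p = 0.0296).

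Ddx42, a helicase that associates with the Sf3b complex, had lower values in depolarized cultures at both times. It was at 9.82, 9.85 and 9.86 in depolarized cultures at 30 min, against 10.26, 10.27 and 10.26 in controls. Its 2 h values were 10.10, 10.12 and 10.22 in depolarized cultures, against 10.54, 10.62 and 10.46 in controls. The groups did not overlap, and the differences were -0.42 ± 0.06 (adjusted p = 7.86e-05) and -0.40 ± 0.06 (adjusted p = 0.000211). A dimmer probe set of Ddx42 went the other way at 30 min, as given below, and averaging both ended the 30 min call (-0.11, adjusted p = 0.2).

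Ddx23, the helicase of the U5 particle that releases U1 from the intron's start, fell at both times (-0.28, adjusted p = 0.00297, and -0.27, adjusted p = 0.00529). Ddx39b, which acts in spliceosome assembly and mRNA export, also fell at both times (-0.29 and -0.20, adjusted p = 0.00417 and 0.0347). Dhx16, needed for activation of the spliceosome, fell at 2 h (-0.22).

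Of 11 measured helicases of ribosome assembly, 1 (9.09%) rose and 4 (36.4%) fell at 30 min. At 2 h 0 rose and 0 fell (0 higher and 1 lower at an unadjusted p). The fallen ones were Ddx24 (-0.42 ± 0.07, adjusted p = 0.000368), Ddx52 (-0.39 ± 0.07, adjusted p = 0.000317), Ddx51 (-0.36 ± 0.06, adjusted p = 0.000221) and Ddx31 (-0.35). The risen one was Ddx50 (0.34). The dimmer probe set of Ddx24 had a smaller difference at 30 min and was not called (-0.21, adjusted p = 0.0602). Ddx52, whose yeast counterpart acts in the small ribosomal subunit, was at 5.79, 5.91 and 5.79 in depolarized cultures at 30 min, against 6.26, 6.23 and 6.19 in controls. All 3 depolarized arrays were lower, and the 2 h groups overlapped (0.04 ± 0.07, adjusted p = 0.71). The list median was -0.17 at 30 min and -0.05 at 2 h.

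Of 10 measured helicases of translation, decay and export, 1 (10.0%) rose and 3 (30.0%) fell at 30 min. At 2 h 3 (30.0%) rose and 3 (30.0%) fell. Ddx3x, which helps start translation of structured mRNAs, was at 12.75, 12.90 and 12.87 in depolarized cultures at 30 min, against 12.24, 12.39 and 12.17 in controls. The 2 h arrays were at 12.87, 12.75 and 12.76 in depolarized cultures, against 12.40, 12.37 and 12.37 in controls. Depolarized arrays were higher without overlap at both times, by 0.58 ± 0.07 (adjusted p = 1.17e-05) and 0.41 ± 0.07 (adjusted p = 0.000466).

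Dhx29, which assists scanning by the small ribosomal subunit, fell at both times (-0.37 ± 0.09, adjusted p = 0.00788, and -0.32 ± 0.09, adjusted p = 0.02), the 2 h call being lost in 4 alternative settings (0.0578 to 0.117). Dhx30, a helicase of mitochondrial ribosome assembly, also fell at both times (-0.37 and -0.26, adjusted p = 0.00457 and 0.0386). Dhx9 rose at 2 h (0.39 ± 0.14, adjusted p = 0.0482), a call lost in 6 settings (0.0578 to 0.205), and Ddx39a rose at 2 h (0.28 ± 0.07, adjusted p = 0.00945), lost without depolarized replicate 4 (0.0624).

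Among the remaining helicases, Dhx57 had the largest fall at 2 h. It was at 9.69, 9.72 and 9.78 in depolarized cultures at 2 h, against 10.18, 10.31 and 10.36 in controls (-0.55 ± 0.07, adjusted p = 2.69e-05). At 30 min it was at 9.29, 9.30 and 9.45 in depolarized cultures, against 9.70, 9.64 and 9.69 in controls (-0.33 ± 0.07, adjusted p = 0.00151). The depolarized arrays were the lower ones at each time, although those at 2 h overlapped the 30 min controls. Ddx20, the Gemin3 subunit of the complex that loads Sm proteins onto small nuclear RNA, fell at 30 min (-0.38 ± 0.07, adjusted p = 0.000904).

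Calls at both times were compared for each gene. Of the 112 genes, 5 rose at both times, 7 fell at both, 1 rose and then fell (Rbm25), 17 rose and 13 fell at 30 min without a call at 2 h, 6 rose and 9 fell at 2 h without a call at 30 min, and 54 were not called at either. A call at 1 time alone does not show that the responses differed, so the difference was tested directly as the 2 h response minus the 30 min response. By that test the response was higher at 2 h in 10 genes (8.93%) and lower in 13 (11.6%), against 6.16% and 6.79% of all probe sets. The count of 10 was 5 without control replicate 5 or depolarized replicate 2, and 6 without control replicate 1 or control replicate 6.

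Of the 23 genes that had risen at 30 min, 11 (47.8%) had a lower response at 2 h and 0 a higher one. Of the 1720 probe sets that rose at 30 min on the whole array, 36.5% had a lower and 2.67% a higher 2 h response. Rbm15 had a response of 0.12 at 2 h and 1.22 at 30 min, a difference of -1.10 ± 0.14 (adjusted p = 7.24e-05). Rbm25 (-0.95 ± 0.11, adjusted p = 5.13e-05), Prpf4b (-0.87 ± 0.10, adjusted p = 2.91e-05), Prpf38b (-0.83 ± 0.10, adjusted p = 3.83e-05) and Prpf3 (-0.67 ± 0.13, adjusted p = 0.00205) followed. For Rbm33 and Ddx3x the responses were not shown to differ (-0.08 ± 0.13, adjusted p = 0.778, and -0.17 ± 0.10, adjusted p = 0.316).

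Of the 20 genes that had fallen at 30 min, 9 (45.0%) had a higher response at 2 h and 0 a lower one, against 30.3% and 0.959% of the 2085 fallen probe sets. They include Clk2 (0.52 ± 0.15, adjusted p = 0.0266), Ddx52 (0.43 ± 0.09, adjusted p = 0.00536), Srsf5 (0.40 ± 0.10, adjusted p = 0.0105), Ddx51 (0.30 ± 0.08, adjusted p = 0.0213), Ddx19b (0.45 ± 0.12, adjusted p = 0.0177), which works in mRNA export at the nuclear pore, and Ddx28 (0.52 ± 0.12, adjusted p = 0.0093), a helicase of the mitochondrial ribosome. The Ddx51 call was lost without control replicate 1 or depolarized replicate 2, or with a replicate block (0.0569 to 0.06), and that of Ddx19b without control replicate 5 or with the trend on level removed (0.0542 to 0.0571). Of the genes without a 30 min call, Srsf6 had the higher 2 h response at its brightest probe set (0.41 ± 0.09, adjusted p = 0.00508), but not at its dimmer one (-0.03 ± 0.10, adjusted p = 0.919) or with both averaged (0.19, adjusted p = 0.176). Lower 2 h responses were those of Clk1 (-0.69 ± 0.10, adjusted p = 0.000263) and Clk3 (-0.54 ± 0.12, adjusted p = 0.00606). As calls at 30 min and the response difference share the 30 min arrays, these counts are not independent of each other, and the whole-array shares run the same way.

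**Figure D3:**
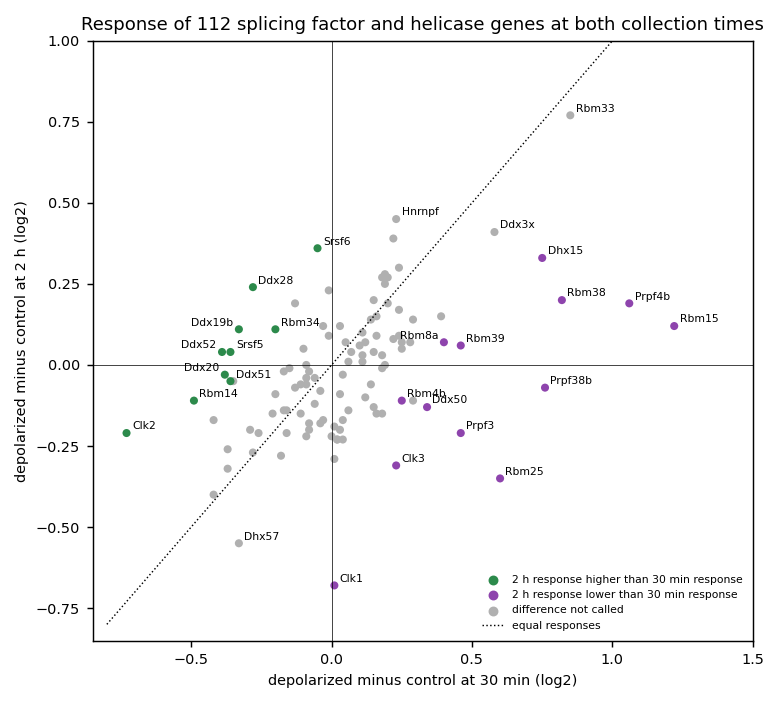
Response (depolarized minus control, log2) at 2 h against that at 30 min for the 112 genes, with the line of equal responses dotted. Green points had a higher and purple points a lower response at 2 h by the limma test of the difference. Rbm15, Prpf4b, Prpf38b and Rbm25 lie far right and low, and Rbm33 lies near the dotted line.

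The 2 control groups were themselves not alike. In 2 h controls against 30 min controls, 12 members (10.7%) were higher and 17 (15.2%) lower, against 18.1% and 17.2% of all probe sets. Quantile normalization gave 9 higher and 26 lower, the count of 12 was 7 without control replicate 4, and the count of 17 was 11 without control replicate 2 or control replicate 6. Clk1 averaged 11.06 ± 0.07 in 2 h controls and 10.40 ± 0.08 in 30 min controls (difference 0.66 ± 0.07, adjusted p = 2.88e-06). Clk4 (0.39), Dhx57 (0.61) and Ddx25 (0.64), a helicase best known from the mouse testis, were also higher. Snrpb averaged 11.23 ± 0.03 in 2 h controls and 11.68 ± 0.05 in 30 min controls (-0.45 ± 0.06, adjusted p = 3.75e-05), and Hnrnpf (-0.42), Snrpa (-0.41), a protein of the U1 particle, and Ddx28 (-0.48) were lower too.

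Cell type markers moved between the same controls. All 7 measured neuronal markers were higher in 2 h controls (median 0.91), as were 5 of 7 dopaminergic ones, while 4 of 6 progenitor and 6 of 7 oligodendrocyte-lineage markers were lower, Olig1 by a difference of -2.45. Against the other progenitor markers Pax6 was higher (1.03), and of 7 astrocyte markers 3 were lower and Aldh1l1 was higher (0.30). Microglial markers gave 0 calls (2 lower at an unadjusted p), and of 8 vascular and fibroblast markers Pdgfrb was higher (0.24). The 3′ minus 5′ level of the hexokinase control probe sets, a measure of RNA integrity and labelling, was 1.47 to 1.53 in 2 h controls and 1.19 to 1.22 in 30 min controls. For beta-actin it was 0.51 to 0.59 and 0.31 to 0.45, also apart. For GAPDH the groups overlapped (0.48 to 0.65 and 0.45 to 0.54). Their part in the differences between controls was not tested, and in bulk cultures fewer cells of a type and less RNA per cell cannot be told apart. Collection time and any difference in preparation cannot be told apart either.

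Between depolarized and control cultures the markers moved less. Of the 7 neuronal markers, Nefm rose at 30 min and Nefl and Nefm rose at 2 h, and of 7 astrocyte markers 0 rose and 0 fell at either time (0 at an unadjusted p). Nr4a2 and Foxa2 rose at both times among the dopaminergic markers, and Slc18a2 rose at 2 h (0.31). Pdgfra fell at both times among those of the oligodendrocyte lineage (-0.58 and -0.75), and Cnp fell at 2 h (-0.28). Of the progenitor markers Pax6 fell (-0.47) and Sox2 rose (0.31) at 2 h. Cd68, of the microglial list, rose at 30 min (0.38), and Pdgfrb, of the vascular list, fell at both times (-0.34 and -0.24). The hexokinase measure was 1.06 to 1.38 in depolarized cultures at 30 min and 1.19 to 1.22 in their controls, and at 2 h it was 1.37 to 1.40 in depolarized cultures and 1.47 to 1.53 in controls. For beta-actin it was 0.33 to 0.43 in depolarized cultures and 0.31 to 0.45 in controls at 30 min, and 0.41 to 0.46 and 0.51 to 0.59 at 2 h. For GAPDH depolarized and control arrays overlapped at both times. The part of these shifts in the members' responses was not tested.

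Because the controls differed, the depolarized level at 2 h was also set beside the 30 min controls, as a description. Of the 11 genes that rose at 2 h, 6 (Ddx39a, Dhx9, Hnrnpdl, Hnrnpf, Hnrnpu and Srsf6) had depolarized arrays overlapping the 30 min controls, and 5 (Ddx3x, Dhx15, Rbm33, Snrpb and Srsf2) did not. Snrpb lay below the 30 min controls, and the other 4 lay above them. Of the 17 that fell, 8 overlapped the 30 min controls, among them Clk1, Clk3 and Dhx57, and 9 did not, among them Ddx42, Dhx29, Prpf6 and Rbm25. The overlapping share was 54.5% of risen and 47.1% of fallen members, against 34.4% of 1509 risen and 27.9% of 2492 fallen probe sets on the whole array.

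**Figure D4:**
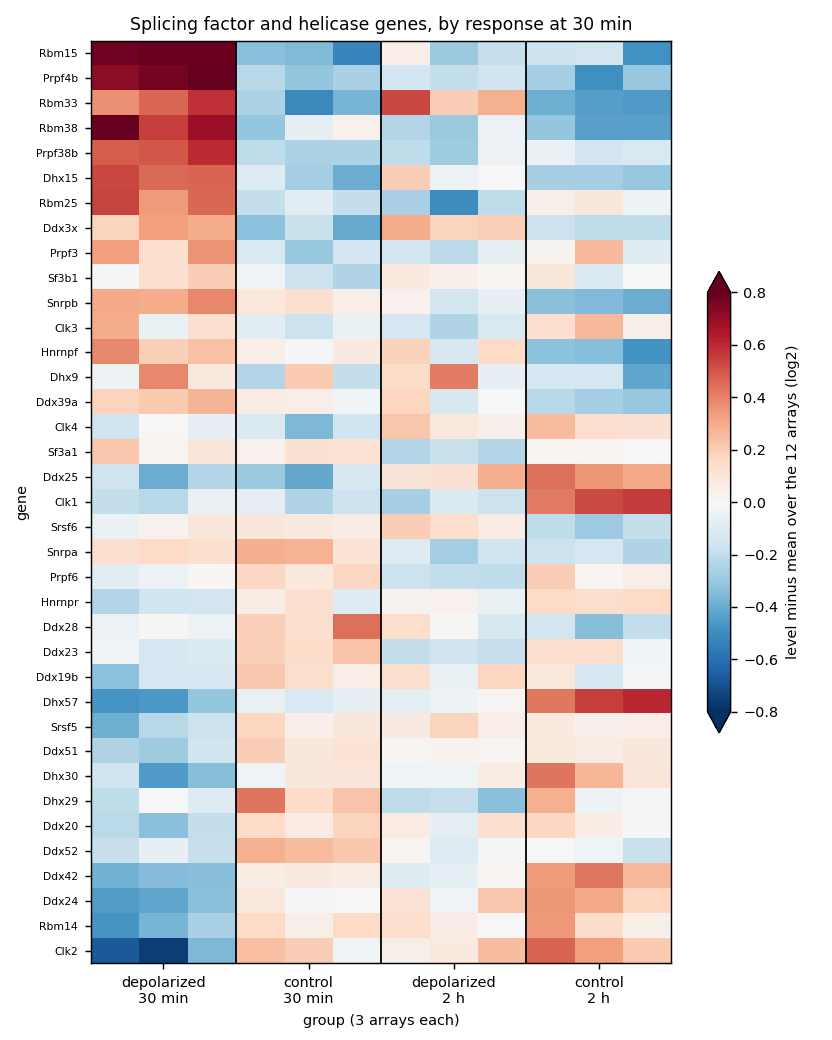
Level of each named gene on every array minus its mean over the 12 arrays (log2, colour), with genes ordered by the response at 30 min and arrays grouped as depolarized and control at 30 min, then at 2 h. Rbm15 to Prpf38b are red in the depolarized arrays at 30 min, Clk2, Rbm14 and Ddx24 are blue there, and Clk1 and Dhx57 are red in the 2 h controls.

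Several genes were measured by more than 1 probe set, and these did not always move together. Of 25 such genes (60 probe sets), calls differed between probe sets in 13 at 30 min and in 8 at 2 h. Ddx42 was the gene with opposite calls: its brightest probe set had a difference of -0.42 at 30 min, and the dimmer one rose by 0.20 ± 0.07 (adjusted p = 0.0328). At 2 h both fell (-0.40 and -0.29). Sf3a1 had 0.02 at its brightest probe set and 0.43 at its dimmer one (adjusted p = 0.00271) at 30 min. The response difference of Prpf3 was -0.67 at its brightest probe set, and -0.24 and -0.21 at the others, which were not called (adjusted p = 0.0885 and 0.118).

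The widest gap was that of Hnrnpu, a protein of the nuclear scaffold, which is named here after its values were seen. Its dimmest probe set was at 9.91, 9.75 and 10.04 in depolarized cultures at 30 min, against 8.86, 8.94 and 8.79 in controls. That is a rise of 1.04 ± 0.09 (adjusted p = 6.71e-07) with groups far apart. Its brightest probe set had a difference of 0.20 ± 0.07 (adjusted p = 0.065) and the other one -0.12 ± 0.08 (adjusted p = 0.343). At 2 h the dimmest probe set had a difference of 0.12 ± 0.09 (adjusted p = 0.388). A dimmer probe set of Hnrnpa1 was likewise higher at 30 min (0.29, adjusted p = 0.0259) and lower at 2 h (-0.49, adjusted p = 0.000922), while its brightest was not called (0.15 and 0.20). The table does not say which transcript forms each probe set detects.

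**Figure D5:**
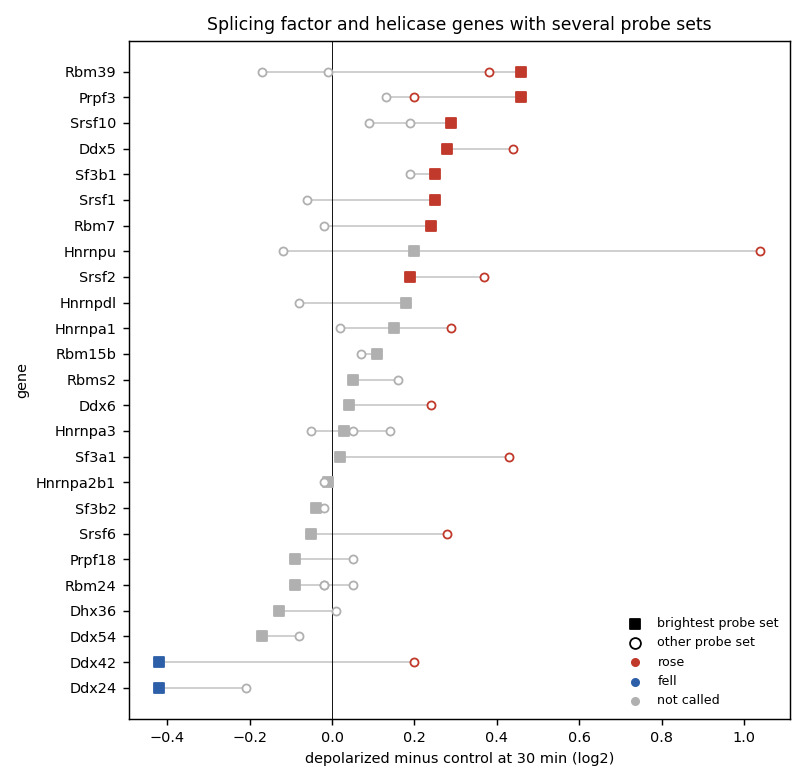
Difference between depolarized and control cultures at 30 min (log2, horizontal axis) for each probe set of the 25 genes with several. Squares are the brightest probe set of a gene and circles the others, coloured by call, with a line joining those of a gene. Hnrnpu spans from -0.12 to 1.04, and Ddx42 has its square at -0.42 and its circle at 0.20.

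Promoters were read from RefSeq (rat build GRCr8) as 250 bases before to 50 after the gene start, for 106 of the 112 genes. They are shown for the pair of genes with the largest rises and for 2 called genes with a motif match, in capitals where a motif was found, on the strand of the gene (minus in all 4).
Rbm15 (chr2:197642648-197642947, no match): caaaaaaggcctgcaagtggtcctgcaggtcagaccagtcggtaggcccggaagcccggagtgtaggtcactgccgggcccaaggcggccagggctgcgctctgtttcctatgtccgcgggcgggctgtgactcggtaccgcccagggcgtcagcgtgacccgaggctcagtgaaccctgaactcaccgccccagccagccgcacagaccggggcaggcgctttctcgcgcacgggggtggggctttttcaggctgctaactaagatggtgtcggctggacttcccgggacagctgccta
Prpf4b (chr17:30224871-30225170, no match): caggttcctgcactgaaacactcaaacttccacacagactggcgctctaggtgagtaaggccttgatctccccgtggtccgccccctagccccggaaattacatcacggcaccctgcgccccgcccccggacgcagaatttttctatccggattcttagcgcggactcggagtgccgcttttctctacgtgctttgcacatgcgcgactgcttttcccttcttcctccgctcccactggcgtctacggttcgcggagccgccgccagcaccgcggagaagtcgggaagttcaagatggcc
Snrpb (chr3:137832430-137832729, CArG box in capitals): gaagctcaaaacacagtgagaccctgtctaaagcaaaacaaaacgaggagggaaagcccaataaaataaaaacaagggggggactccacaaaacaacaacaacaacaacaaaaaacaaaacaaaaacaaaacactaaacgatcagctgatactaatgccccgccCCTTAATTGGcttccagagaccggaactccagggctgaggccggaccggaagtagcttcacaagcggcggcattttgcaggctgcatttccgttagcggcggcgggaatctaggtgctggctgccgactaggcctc
Ddx51 (chr12:51675715-51676014, CRE in capitals): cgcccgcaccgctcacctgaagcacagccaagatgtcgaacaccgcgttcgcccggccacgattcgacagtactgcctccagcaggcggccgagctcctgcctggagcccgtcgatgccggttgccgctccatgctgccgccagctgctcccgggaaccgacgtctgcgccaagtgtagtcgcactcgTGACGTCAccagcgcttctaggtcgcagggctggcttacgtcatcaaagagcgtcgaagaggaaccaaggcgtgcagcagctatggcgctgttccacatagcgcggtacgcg

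Motifs known from activity-dependent genes were searched on both strands: the cyclic AMP response element CRE (TGACGTCA), the AP-1 site (TGANTCA), the E-box (CACGTG) and the CArG box of serum response factor. The CRE was in 6 of 106 members (5.66%), against 2.0% of 27457 genes, and the AP-1 site in 4 (3.77%), against 8.04%. The E-box was in 10 (9.43%), against 7.08%, and the CArG box in 2 (1.89%), against 1.77%. Of the 23 genes that rose at 30 min, 0 had a CRE, 1 an AP-1 site (Rbm38), 2 an E-box (Prpf3 and Prpf39) and 1 a CArG box (Snrpb). Of the 18 fallen genes with a promoter, 2 had a CRE (Ddx28 and Ddx51). A match is a description of these letters, and its absence says nothing about a factor.

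Other genes of RNA processing, listed by function and outside the naming rule, were read from the same fit. Of 46 measured splicing regulators, 18 (39.1%) rose and 1 (2.17%) fell at 30 min. At 2 h 8 (17.4%) rose and 6 fell, the latter a smaller share than over all genes. Over all genes at their brightest probe set 10.9% rose and 15.4% fell at 30 min, and 9.59% and 18.4% at 2 h. The difference of this and the following lists from those shares was not tested. Dyrk1a, a kinase that phosphorylates splicing factors among other proteins, averaged 9.47 ± 0.09 in depolarized cultures at 30 min and 8.41 ± 0.01 in controls, a rise of 1.06 ± 0.07 (adjusted p = 2.11e-08). Mbnl2, which controls developmental splicing, rose at both times (0.90 and 0.63, adjusted p = 4.67e-06 and 0.000237), as did Luc7l3 of the U1 particle (0.61 and 0.28), Sfpq (0.49 and 0.60) and Tial1 (0.46 and 0.40). The list median was 0.14 at 30 min and 0.00 at 2 h.

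Of 41 further core spliceosome genes, 9 rose at 30 min, a larger share than over all genes, and 3 (7.32%) fell. At 2 h 1 (2.44%) rose and 14 (34.1%) fell. Bud31 (0.55), Cdc5l (0.44) and Smu1 (0.41) rose at 30 min, and Ppil1 (-0.51), Ctnnbl1 (-0.49) and the intron-binding helicase Aqr (-0.43) fell at 2 h. The 2 h median of this list was -0.11, beside -0.001 over all probe sets.

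Of 10 genes that assemble small nuclear ribonucleoproteins, 0 rose (0 higher at an unadjusted p) and 6 (60.0%) fell at 30 min. At 2 h 1 (10.0%) rose and 4 (40.0%) fell. Gemin4, which like Ddx20 belongs to the complex of the survival motor neuron protein, was at 6.64, 6.69 and 6.98 in depolarized cultures at 30 min, against 7.82, 7.66 and 7.75 in controls. The depolarized arrays were all lower, with a difference of -0.97 ± 0.09 (adjusted p = 6.38e-07), and at 2 h the groups overlapped (-0.03, adjusted p = 0.874). Gemin2 (-0.50) and Gemin8 (-0.32) also fell at 30 min, and Gemin8 (-0.47), Prmt5 (-0.57), which methylates Sm proteins, and Coil (-0.46), the marker protein of Cajal bodies, fell at 2 h.

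Of 17 genes of the exon junction complex, mRNA export and nonsense-mediated decay, 7 (41.2%) rose and 0 fell at 30 min. At an unadjusted p, 2 were lower there. At 2 h 2 (11.8%) rose and 3 (17.6%) fell. The export receptor Nxf1 (0.65), Magoh (0.47), a partner of Rbm8a, and Thoc6 (0.39) rose at 30 min, while at 2 h the export adaptor Alyref (0.28) and Nxt1 (0.29) rose and Thoc5 fell (-0.33). Averaging its probe sets ended the Alyref call (0.16, adjusted p = 0.0761). The Nxt1 call was lost without control replicate 5 or 6, or depolarized replicate 4 or 6 (adjusted p 0.0545 to 0.12).

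Of 13 cleavage and polyadenylation genes, 3 (23.1%) rose and 1 (7.69%) fell at 30 min. At 2 h 3 (23.1%) rose and 3 (23.1%) fell. Cpsf6, a subunit of cleavage factor I that affects the choice of polyadenylation site, was at 9.16, 9.41 and 9.40 in depolarized cultures at 30 min, against 8.18, 8.33 and 8.17 in controls. At 2 h it was at 9.25, 9.08 and 8.90 in depolarized cultures, against 8.14, 7.77 and 8.14 in controls. All depolarized arrays were higher than the controls, by 1.10 ± 0.11 (adjusted p = 1.61e-06) and 1.06 ± 0.11 (adjusted p = 6.43e-06). Clp1 (0.46) and Cpsf7 (0.31, or 0.14 and not called with its probe sets averaged, adjusted p = 0.0896) rose at 30 min, and at 2 h Papola, the poly(A) polymerase, rose (0.41) and Cpsf2 fell (-0.56).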

How the data were processed

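Total RNA of 12 pooled culture samples was hybridized to 1 single-colour Affymetrix rat array each, and the deposited table holds log2 expression values. Per the submitters' processing notes the authors used RMA, with no version named. The range of the values gave the log2 scale, and which arrays were normalized together is not given in the sources used here. Of 15923 probe sets, 57 array controls were left out. The platform annotation, which can be old, gave 1 symbol for 12783 probe sets, and 11 probe sets with several symbols that fitted the naming rule were not used. Array values carry no read depth and the table holds no detection calls.

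With all 12 arrays in 1 fit, the 4 group means were estimated with limma 3.58.1 in R 4.3.3 (8 residual degrees of freedom, no replicate block), with two-sided p-values adjusted by Benjamini-Hochberg over all 15866 probe sets. Other tables were made with Python 3.11.15 and pandas 2.3.3. The members and gene lists were chosen with earlier results of these data known. Members given in full were, per comparison, the 8 largest rises and 8 largest falls past the threshold without overlap of arrays, the member with the smallest p in each family and all 4 Clk genes, plus 6 each way for the response difference, 4 each way for the controls and up to 3 per outside list; further examples were picked with their values known. The model was also tested on simulated data. Alternatives were median centring, quantile normalization, removal of each array's loess trend on level, leaving out the dimmest 25% of probe sets, fitting only the arrays compared, a trended and robust prior, averaging each gene's probe sets, a block for the replicate number, and leaving out each array. Protein sequences were not used here.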

Additional observations from a re-analysis of the deposited data

Results flagged for a closer look

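For 18 named members the response at 2 h differed from that at 30 min by the limma test of the difference, adjusted over all probe sets. In 9 of them the 2 h response was the lower one. The difference was -1.10 for Rbm15, -0.95 for Rbm25, -0.87 for Prpf4b, -0.83 for Prpf38b and -0.67 for Prpf3. It was -0.62 for Rbm38, -0.42 for Dhx15, -0.69 for Clk1 and -0.54 for Clk3. In the others the 2 h response was the higher one: the difference was 0.52 for Clk2, 0.38 for Rbm14, 0.40 for Srsf5 and 0.41 for Srsf6, whose dimmer probe set had -0.03. Among helicases it was 0.43 for Ddx52, 0.35 for Ddx20, 0.52 for Ddx28, 0.45 for Ddx19b and 0.30 for Ddx51. For Rbm25 the responses had opposite signs, with -0.35 at 2 h and 0.60 at 30 min, and both passed the threshold. For Clk1, Clk3, Prpf3, Rbm38, Ddx52, Srsf6 and Ddx28 the 2 control groups differed as well, and collection time and any difference in preparation cannot be told apart.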

How the results depend on the processing

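Of 92 named results, 77 kept their side of the threshold under every alternative that could be run for them. Direction was compared only for results with a call. Of 1336 combinations of result and setting, 1291 kept the call and 0 changed sign with a call. The 15 that changed were Hnrnpr, Sf3b1, Clk3, Ddx42 and Cpsf7 at 30 min, Dhx9, Ddx39a, Dhx29, Clk3, Sf3a1, Nxt1 and Alyref at 2 h, and the response differences of Ddx19b, Ddx51 and Srsf6. Averaging each gene's probe sets ended 5 calls (Ddx42, Sf3a1, Srsf6, Alyref and Cpsf7) and left 24 members risen and 19 fallen at 30 min, and 11 and 19 at 2 h; the replicate block ended 2 (Hnrnpr and Ddx51). Median centring gave 36 members risen at 30 min with a median of 0.084, and 9 fallen at 2 h with a median of 0.018. Removing the loess trend gave a 2 h median of 0.006. Quantile normalization gave a median response difference of -0.017, and for the controls 26 lower members with a median of -0.091. The cause was not tested. Scaling moved the median of all probe sets by under 0.1.

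Leaving out 1 array at a time, 17 to 28 members rose and 16 to 17 fell at 30 min (median 0.021 to 0.052), and 8 to 12 rose and 9 to 19 fell at 2 h (median -0.043 to -0.007). The response difference gave 5 to 10 higher and 11 to 15 lower (median -0.079 to -0.027), and the controls 7 to 16 higher and 11 to 16 lower (median -0.047 to -0.004). Fewer arrays alone weaken these fits. With the replicate number as a block, 20 members rose and 17 fell at 30 min, 11 rose and 12 fell at 2 h, and the response difference was higher in 7 and lower in 12. Whether equal numbers mark the same tissue pool is not given in the labels. Correlations of same-numbered deviations were -0.322, 0.229 and 0.0513 at 30 min, and 0.236, -0.107 and -0.241 at 2 h. Those of differently numbered arrays ran from -0.415 to 0.354. With 3 arrays a group these values cannot settle whether the numbers pair the samples. The controls of the 2 times share no number, so no block could be fitted there. As the table has no detection calls, the distance of the dimmest member (Ddx52, mean level 5.98) from background is unknown.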
